A study of Mus musculus with 32 samples.

Results

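The 40 genes described here act in the cell division cycle, and they were chosen by name from a list of genes of replication and mitosis. All 40 were found among 23236 gene symbols in the tables of 32 libraries, each as 1 record with an accepted estimate in every library. They comprise 3 genes of general proliferation (Mki67, Top2a, E2f1), 6 cyclins and their kinase (Ccna2, Ccnb1, Ccnb2, Ccne1, Ccne2, Cdk1) and 11 genes of origin licensing and the replication fork (Cdc6, Cdc45, Cdt1, Gmnn, Mcm2 to Mcm7, Pcna). The others are 3 genes of nucleotide supply (Rrm1, Rrm2, Tyms), 5 of the spindle checkpoint and the anaphase-promoting complex (Bub1, Bub1b, Mad2l1, Cdc20, Ube2c), 4 mitotic kinases and partners (Plk1, Aurka, Aurkb, Birc5) and 8 of centromere, motors and spindle (Cenpa, Cenpe, Kif11, Kif20a, Nusap1, Tpx2, Hmmr, Prc1).

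Total RNA was sequenced from gut tissue of 2 genotypes, wild type and a germline deletion on both alleles called percc1-/-, both of strain background Mixed 129SvEv and C57BL/6. It was made in W4/129S6 ES cells, where a loxP site took the place of 1512 bp, and sibling breeding kept the line. Each region and stage gave 1 library per genotype, so that 32 libraries formed 16 pairs. Small intestine gave 7 pairs, from its top part at P1, P5 and P15 (postnatal days 1, 5 and 15) and its bottom part at P1, P5, P10 and P20. The 5 pairs of stomach were the undivided organ at P1 and P5 and the bottom part at P10, P15 and P20. The 3 pairs of large bowel were colon plus rectum at P1, and at P5 colon and rectum apart. Whole gut at E14.5, an embryonic stage, gave 1 pair. The labels do not say whether libraries came from separate animals or from pools, so p-values measure the spread between these libraries only, which may be partly technical.

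In the gut, cell division is concentrated in a few places. In the early embryonic gut, cells divide through most of the wall and its lining. As the gut matures, division in the epithelium becomes confined to the spaces between villi, later the crypts, and to the neck of gastric glands. Genes of DNA replication are switched on by E2F factors as a cell passes from G1 into S phase. Genes of mitosis are held down in resting cells by the DREAM complex, which binds a promoter element called CHR, and are raised in G2 by B-Myb and FoxM1, often together with CCAAT boxes bound by NF-Y. In bulk tissue, fewer dividing cells and less RNA per dividing cell cannot be told apart.

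The promoters of 4 genes are shown because they are of genes of mitosis and of replication and because their levels are described below. They are the 250 bases before the RefSeq transcription start on GRCm38.p6, in the direction of transcription, with matches to the motifs searched in capitals. Mki67 encodes the proliferation antigen Ki-67 and lies on the minus strand at chr7:135716380-135716629. Cdk1, the kinase that drives entry into mitosis, lies on the minus strand at chr10:69352913-69353162. Mcm5, a subunit of the replicative helicase, lies on the plus strand at chr8:75109259-75109508. Cdc6, which loads that helicase onto origins, lies on the plus strand at chr11:98907901-98908150.
Mki67: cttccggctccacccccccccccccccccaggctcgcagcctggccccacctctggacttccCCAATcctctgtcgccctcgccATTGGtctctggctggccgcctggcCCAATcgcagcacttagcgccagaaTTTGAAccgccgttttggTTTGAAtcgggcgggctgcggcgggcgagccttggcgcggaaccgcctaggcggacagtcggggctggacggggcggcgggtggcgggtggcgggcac
Cdk1: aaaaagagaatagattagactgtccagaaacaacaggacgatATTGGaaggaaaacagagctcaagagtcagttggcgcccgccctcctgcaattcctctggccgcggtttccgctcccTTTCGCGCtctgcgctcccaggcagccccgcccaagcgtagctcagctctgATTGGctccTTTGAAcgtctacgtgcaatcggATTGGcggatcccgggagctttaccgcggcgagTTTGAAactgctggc
Mcm5: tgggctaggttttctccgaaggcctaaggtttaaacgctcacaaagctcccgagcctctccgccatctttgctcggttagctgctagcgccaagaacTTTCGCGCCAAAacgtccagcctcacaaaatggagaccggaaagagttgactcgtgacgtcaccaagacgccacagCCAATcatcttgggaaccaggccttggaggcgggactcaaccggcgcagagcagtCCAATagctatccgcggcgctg
Cdc6: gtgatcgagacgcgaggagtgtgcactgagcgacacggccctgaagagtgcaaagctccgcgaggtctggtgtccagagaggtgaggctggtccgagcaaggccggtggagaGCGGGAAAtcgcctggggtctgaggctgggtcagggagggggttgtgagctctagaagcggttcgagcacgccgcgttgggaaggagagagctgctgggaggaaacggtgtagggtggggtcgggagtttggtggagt
In the deposited mm9 tables the records of these genes spanned chromosome 7, 142879395 to 142908062 (Mki67), chromosome 10, 68799015 to 68815660 (Cdk1), chromosome 8, 77633415 to 77652688 (Mcm5), and chromosome 11, 98769150 to 98785377 (Cdc6), with ends that varied between libraries. The Mki67 window held 2 CHR matches and 3 CCAAT matches. The Cdk1 window held 2 CHR, 3 CCAAT and 1 E2F match. The Mcm5 window held 2 overlapping E2F matches and 2 CCAAT matches, and the Cdc6 window held 1 E2F match.

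The motifs were the CCAAT box, the CHR element with the letters TTTGAA, and an E2F site, each searched on both strands. The 4 forms of the E2F site were TTTCCCGC, the form TTTCGCGC, the form TTTGGCGC and the form TTTGCCGC, and matches to different forms may overlap. RefSeq windows of 300 bases were found for 33 of the 40 genes. They had 35 windows, of which 16 (45.7%) held a CHR match, against 17.9% of all 32851 windows of that length. E2F matches were in 7 of the 35, against 2.26% of all windows, and CCAAT matches in 27 (77.1%), against 37.4%. For a count by class, E2f1, Ccne1, Ccne2 and the genes of licensing, the fork and nucleotide supply were taken as 17 replication and G1/S genes and the other 23 as G2 and mitosis genes. Of the 19 G2 and mitosis genes with a window, 13 held a CHR match, 1 an E2F match and 16 a CCAAT match. Of the 14 replication and G1/S genes with one, 2 held a CHR match, 6 an E2F match and 9 a CCAAT match. A match is a description of letters, not of a bound factor.

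The genes were expressed at low to middle levels. Levels are given as FPKM, sequenced fragments of a transcript divided by its length and by the library's mapped fragments. They were rescaled so that the median ratio of a library to the genes' geometric means was the same in all libraries. Over the 32 libraries the gene means ran from 2.23 for Ccne2, a cyclin of S-phase entry, to 22.02 for Pcna, the sliding clamp of the replication fork. Within the roles the highest means were 18.2 for Mki67, 13.6 for Ccna2 (the S and G2 cyclin), 11.8 for Rrm1 (the large subunit of ribonucleotide reductase), 14.2 for Ube2c (the ubiquitin-conjugating enzyme of the anaphase-promoting complex), 10.8 for Plk1 (a mitotic kinase) and 13.4 for Prc1 (a bundler of midzone microtubules). Of the 40 genes, 38 were above 0 in every library. Ccne2 was listed at 0 in 10 libraries and Kif20a, a motor of cytokinesis, in 4, and these zeros are not read as absence. The deposited upper bound lay 5.29% above the value for Mki67 and 34.1% above it for Ccne2, with a median of 12.1% over the 40 genes, so the low genes were the least precise. The members were not spread alike, since Pcna stayed between 18.3 and 30.3 while Bub1, a checkpoint kinase, ran from 1.09 to 13.6.

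Other facts of the libraries bear on these values. Records with a gene symbol held 16.8% to 60.2% of the summed FPKM of a library, and the highest share was in bottom stomach at P15 of percc1-/-, where 30 of the 40 genes were below wild type. Unnamed records overlapped some of the genes, with a mean of 25.96 FPKM over Cdk1, 19.1 over Top2a and 14.1 over Cenpa, against 0 over Birc5 and Mad2l1. The named records of Cdk1, Top2a and Cenpa had lower means as deposited, 9.57, 18.15 and 11.86 FPKM. Except where unnamed records are said to be added, levels are those of the named record alone. Markers checked the tissue labels. Enterocyte markers summed to 395.5 to 682 in small intestine, 100.5 to 208 in stomach and 100.6 to 295 in large bowel. Gastric gland markers summed to 151 to 981 in stomach but reached 276 in small intestine, so those ranges overlapped. In 8 of the 16 pairs a marker list of another organ differed by over 1 log2 unit in median. No record carried the symbol Percc1. The build of the positions stated for the deletion is in doubt, so records at those positions were not used as a check of the labels or of the deleted segment.

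**Figure D1:**
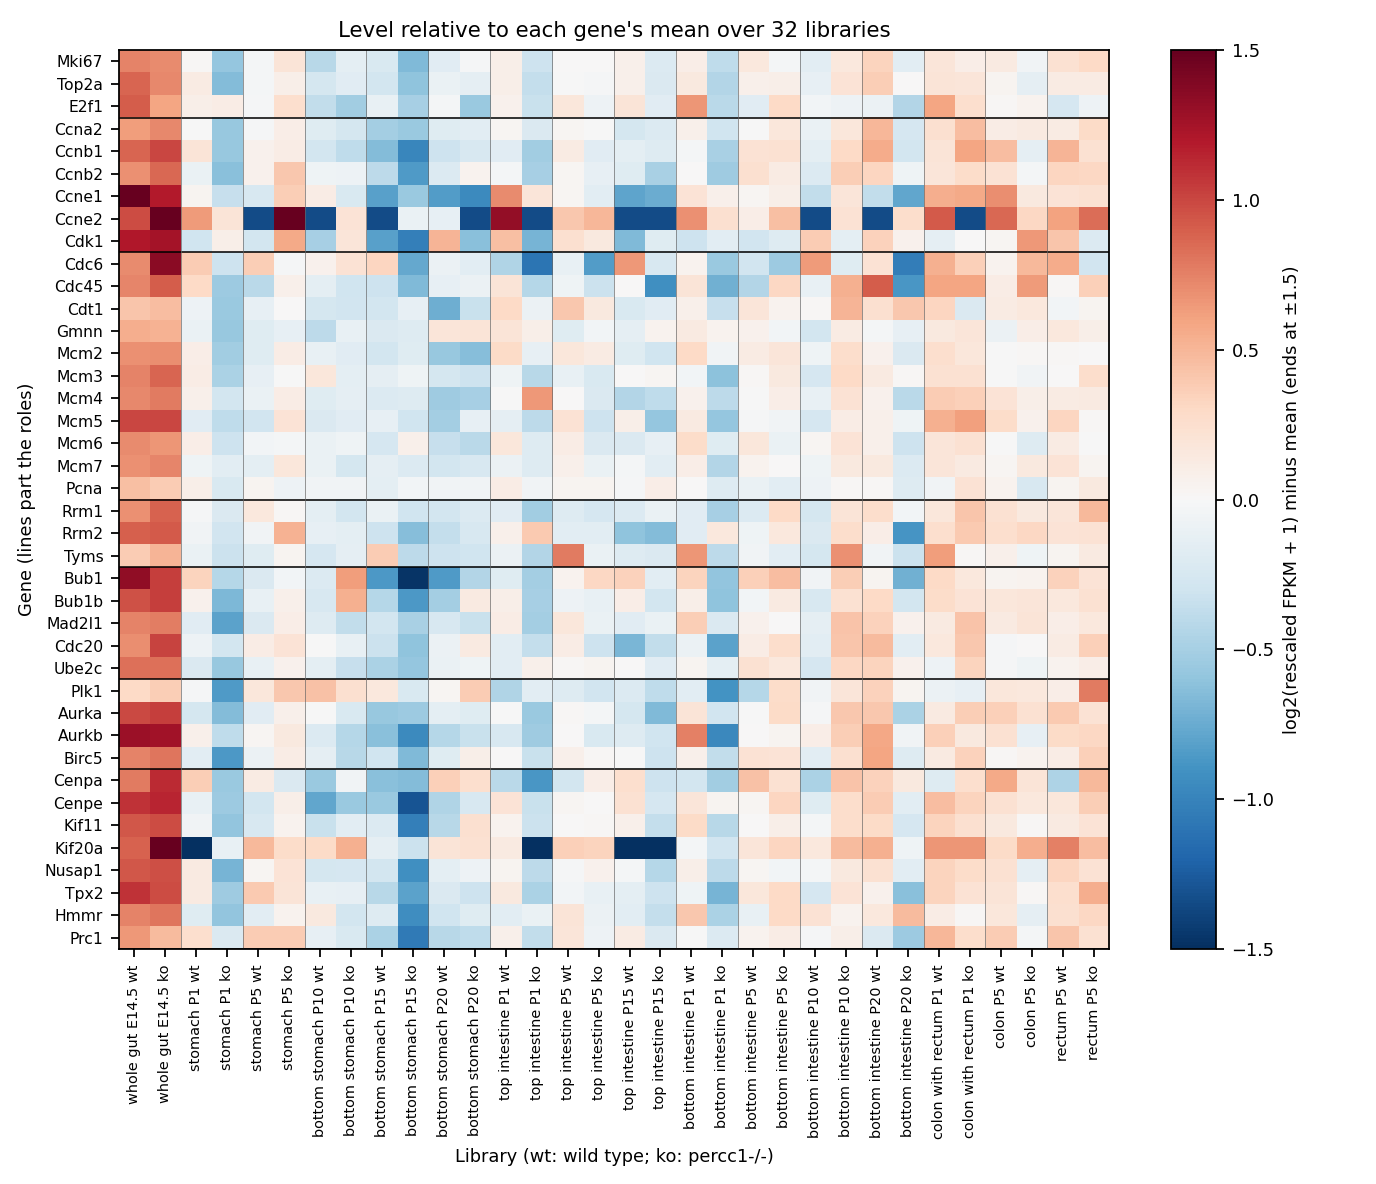
Level of each of the 40 genes (rows, grouped by role) in each of the 32 libraries (columns), as log2(rescaled FPKM + 1) minus the gene's mean over all libraries. Both E14.5 columns are red in nearly every row, and the percc1-/- columns of stomach, top and bottom intestine at P1 are blue in most rows.

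The level of the whole group was highest before birth. Summed over the 40 genes, whole gut at E14.5 had 681 FPKM in wild type and 711 in percc1-/-. No later library exceeded 459, the value of colon with rectum at P1 in percc1-/-. The lowest was 253, in bottom stomach at P15 of percc1-/-. Among postnatal libraries, large bowel at P1 and P5 spanned 395 to 459, small intestine at P1 and P5 283 to 411, and stomach at P1 and P5 267 to 422. From P10 to P20 small intestine spanned 306 to 453 and stomach 253 to 340.5. The postnatal ranges of the 3 organs overlapped, and the E14.5 values stood above all of them.

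**Figure D2:**
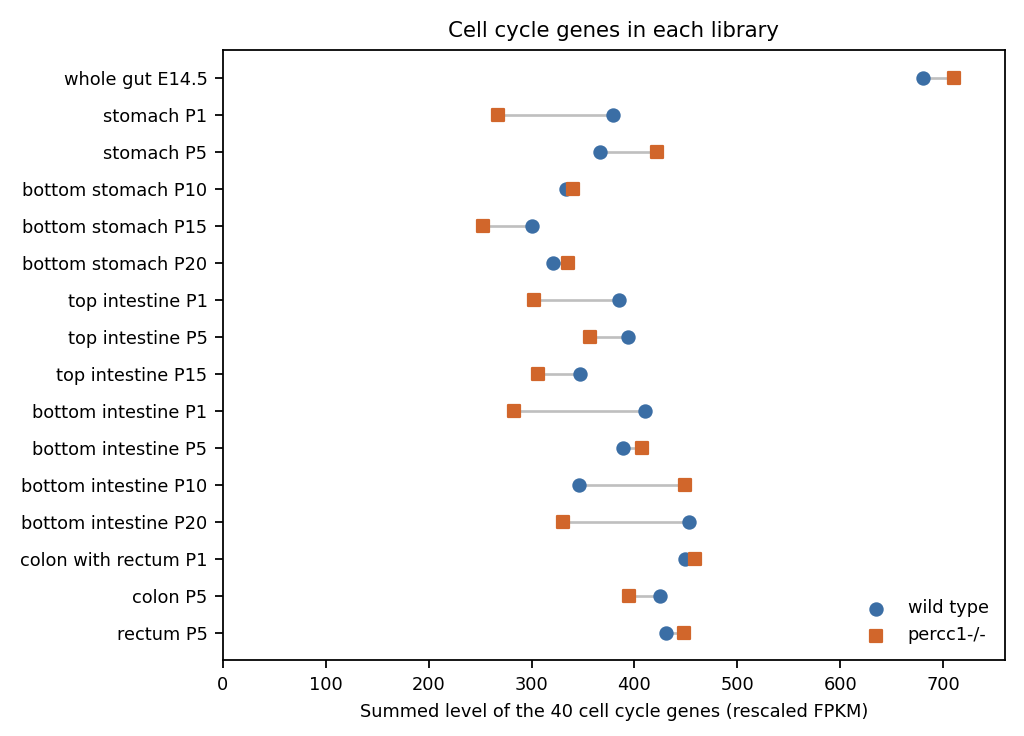
Summed level of the 40 genes (x axis, rescaled FPKM, from 0) in each region and stage (y axis), 1 point per library, wild type as circles and percc1-/- as squares. The E14.5 pair lies at 681 and 711, apart from all postnatal libraries, and the percc1-/- point lies left of wild type in stomach, top and bottom intestine at P1.

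E14.5 whole gut was compared with the 8 P1 libraries to ask how the genes differ between embryo and newborn. Of the 40 genes, 20 were higher at E14.5 and 0 lower, against 5.96% of 13464 genes called in either direction and 3.34% called higher. All 40 differences were positive, with a median of 0.92 log2 units against 0.00 over all genes tested. At unadjusted p under 0.05 stood 38 of the 40, against 26.5% of all genes. For 36 of the 40 both E14.5 libraries lay above every P1 library, against 13.7% of all genes, and the exceptions were E2f1, Ccne2, Tyms and Prc1. Stage and dissection differ together here and cannot be told apart, because the E14.5 tissue was the whole gut and the P1 tissue was cut into regions.

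Mki67 was at 30.6 (wild type) and 29.85 (percc1-/-) at E14.5. In the 8 P1 libraries it had a lowest value of 11.6, a median of 18.5 and a highest of 20.3. The groups did not overlap, and the difference was 0.83 ± 0.16 (SE) on the log2(FPKM + 1) scale (adjusted p = 0.0241 in limma, which holds for the other adjusted values here). Cdk1 was at 21.9 and 22.7 at E14.5 and between 5.16 and 12.6 at P1, with a median of 8.04. Its difference was 1.36 ± 0.25 (adjusted p = 0.0182). Both E14.5 values of Cdk1 were higher than any postnatal one, of which the highest was 14.65 in colon at P5 of percc1-/-. Aurkb, the kinase of the chromosomal passenger complex, was at 21.3 and 21.0 at E14.5 and between 3.68 and 14.48 at P1, with a median of 7.67. It was higher at E14.5 by 1.37 ± 0.31 (adjusted p = 0.0376).

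Other mitotic genes called higher were the checkpoint kinase Bub1 (1.25 ± 0.23, adjusted p = 0.0185), the centromeric histone Cenpa (1.23 ± 0.30, adjusted p = 0.0446), the spindle assembly factor Tpx2 (1.15 ± 0.23, adjusted p = 0.0252) and its partner kinase Aurka (1.15 ± 0.26, adjusted p = 0.0358). By class, 15 of 23 G2 and mitosis genes were called, with a median of 1.01 log2 units. Of the 17 replication and G1/S genes 5 were called, with a median of 0.78. Whether the classes differ was not tested. All 8 genes of centromere, motors and spindle were positive and 6 were called, while 3 of the 11 licensing and fork genes were called. Pcna was at 30.3 and 28.8 at E14.5 and between 18.6 and 25.7 at P1. The groups did not overlap, yet its difference of 0.43 ± 0.12 was not called (adjusted p = 0.0682). Ccnb1, the mitotic cyclin, differed by 1.03 ± 0.29 and was not called either (adjusted p = 0.0665).

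**Figure D3:**
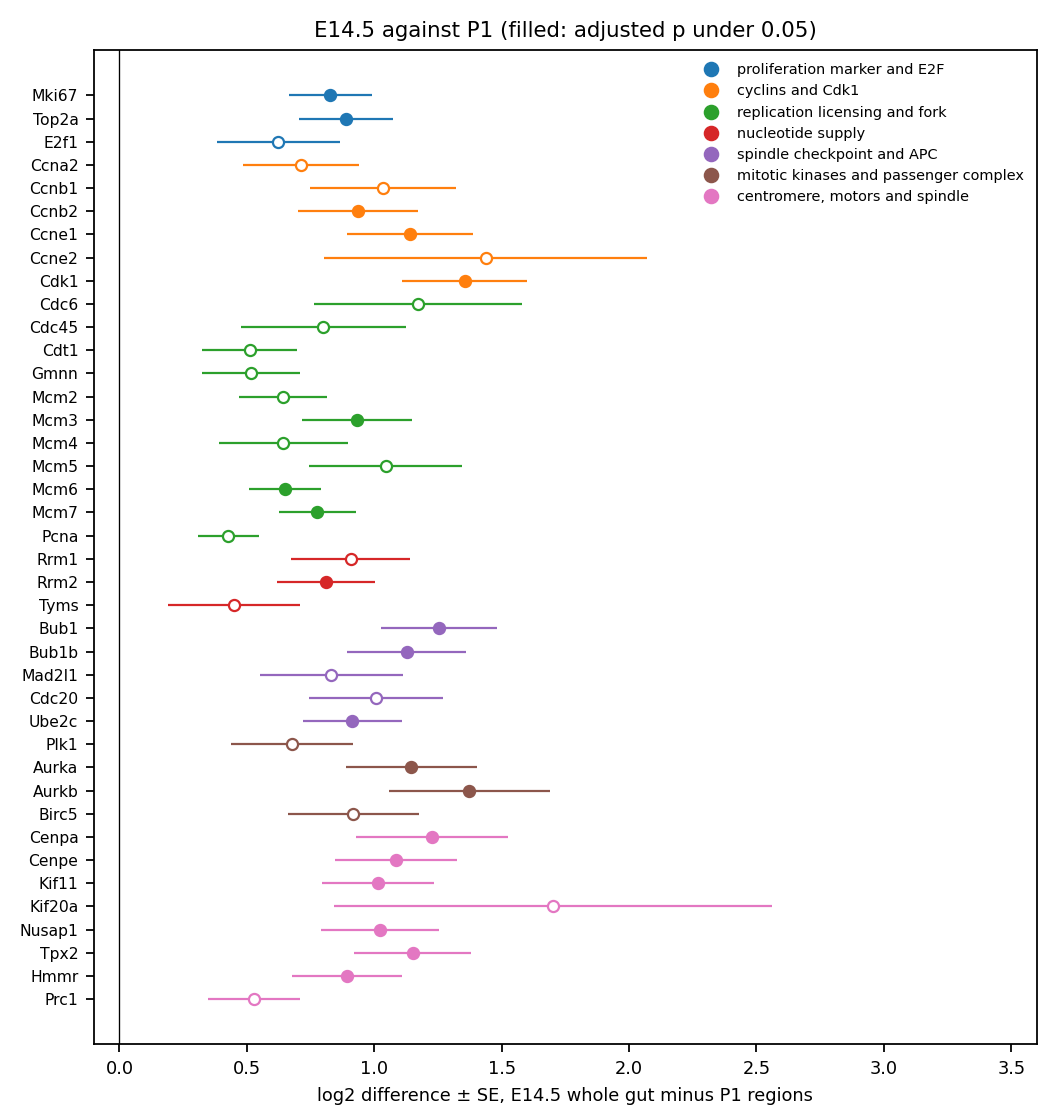
Difference between whole gut at E14.5 (2 libraries) and P1 regions (8 libraries) for each of the 40 genes, as log2 difference with its standard error, coloured by role, with filled points for adjusted p under 0.05. All 40 points lie right of 0, and 20 are filled.

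Genes of the same pathways outside the 40 were also higher at E14.5. Of 38 other mitosis genes 13 were called higher, against 3.34% of all genes tested, and all 38 were positive, with a median of 0.91. Among them was Ttk, the checkpoint kinase Mps1, at 16.1 ± 1.499 (SD, n = 2) against 3.91 ± 1.22 (SD, n = 8), a difference of 1.84 ± 0.25 (adjusted p = 0.00468). Of 28 other replication genes 8 were called higher and all 28 were positive, with a median of 0.70. An example is Lig1, the ligase that joins Okazaki fragments (0.86 ± 0.15, adjusted p = 0.0173). Of 14 genes of the E2F, DREAM and MuvB list 3 were higher, namely E2f2, E2f3 and E2f7. Of 11 cell cycle inhibitors 1 was called, Cdkn2b (p15), which was lower by 1.64 ± 0.35 on the log2 scale (log2 change -1.64, adjusted p = 0.0303). None of 11 p53 targets was called (median -0.16).

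Markers of other cells moved with this comparison. Of 7 erythroid markers tested 7 were higher at E14.5, with a summed level of 105 to 122 against 5.74 to 13.1 at P1, where Hbb-bh1 was listed at 0 in all 8. Liver markers summed to 159.5 to 184 against 13.3 to 52.2, with 6 of 10 called, and skeletal muscle markers to 104 to 120.4 against 6.36 to 50.1, with 2 of 5 called. Enterocyte markers summed to 108 to 139.8 at E14.5 and 100.5 to 662 at P1, with 0 of 12 called. The part of these cells in the higher cell cycle levels was not tested. The number called was not steady, although every difference stayed positive in each refit, 40 of 40 or 38 of 38 where fewer were tested. It was 4 with FPKM as deposited, 0 in wild-type libraries alone and 0 with the pair as a random block. It was 1 without the libraries of pairs with other-organ markers. Leaving out a P1 pair gave 1 call without top intestine, 2 without bottom intestine and 30 without colon with rectum. Adding unnamed records over the genes gave 28 calls and a median of 1.54.

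Genotype was compared first over all 16 pairs, which asks whether the deletion moved the cell cycle genes across the gut. No gene of the 40 was called, against 0.887% of 13084 genes. At unadjusted p under 0.05 stood 7 of the 40, against 13.2% of all genes. The direction was mostly negative, with 34 of 40 below 0, but the median was small, -0.09 log2 units against 0.00 over all genes. Prc1 came nearest to the threshold, with -0.22 ± 0.05 (adjusted p = 0.0609), and was lower in 12 of 16 pairs. Its level was 12.3 ± 3.31 (SD, n = 16) in percc1-/- and 14.4 ± 3.33 (SD, n = 16) in wild type, so the groups overlapped widely. Cdc6 differed by -0.45 ± 0.13 (adjusted p = 0.102) and was lower in 13 of 16 pairs. Nusap1, a spindle microtubule binder, differed by -0.20 ± 0.08 (adjusted p = 0.25). Mki67 (-0.13 ± 0.07, adjusted p = 0.443), Ccnb1 (-0.18 ± 0.09, adjusted p = 0.384) and Pcna (-0.05 ± 0.04, adjusted p = 0.706) were further from it. Leaving out bottom intestine at P10 or bottom stomach at P20 brought Prc1 under the threshold (adjusted p = 0.0455 and 0.0454), and leaving out the E14.5 pair did so for Cdc6 (adjusted p = 0.0288).

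Of the other lists, 35 of 37 mitosis genes and 24 of 28 replication genes outside the 40 were also negative over all pairs, with medians of -0.13 and -0.09 and 0 called in each. Cell cycle inhibitors (5 of 11 positive), G1 cyclins and kinases (6 of 9 positive) and p53 targets (7 of 11 positive) showed no such direction, with 0 called in each list.

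Within small intestine 0 of 40 genes were called over 7 pairs, against 0.117% of 12772 genes, and 3 stood at unadjusted p under 0.05, against 10.1%. The median was -0.19 and 35 were negative. Exocrine pancreas markers were negative in 17 of 18 (median -0.80), leukocyte ones in 8 of 8 (-0.32) and fibroblast and matrix ones in 8 of 9 (-0.15), with 0 called. Their part was not tested. Cdc6 was lower in each of the 7 pairs. In top intestine it was at 1.28, 1.73 and 3.13 in percc1-/- at P1, P5 and P15, against 2.58, 3.52 and 6.68 in wild type. In bottom intestine it was at 2.31, 2.34, 3.31 and 1.37 in percc1-/- at P1, P5, P10 and P20, against 4.05, 3.01, 6.601 and 4.65. Every percc1-/- library was below its own partner, but the ranges of the genotypes overlapped between 2.58 and 3.31. The difference was -0.74 ± 0.12 (adjusted p = 0.063), and it was -0.74 with an adjusted p of 0.315 without the pair in the model. The upper bound deposited for Cdc6 lay a median 26.02% above its value. Mki67 (-0.22 ± 0.10, adjusted p = 0.5175), the helicase subunit Mcm6 (-0.22 ± 0.09, adjusted p = 0.483) and Prc1 (-0.20 ± 0.09, adjusted p = 0.489) were not called.

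In stomach 0 of 40 genes were called over 5 pairs, against 0.0226% of 13266 genes, and 0 stood at unadjusted p under 0.05, against 4.6%. The median was -0.08, and Cdc6 (-0.42 ± 0.19), Tpx2 (-0.27 ± 0.12) and Prc1 (-0.22 ± 0.12) all had an adjusted p of 0.988. In large bowel 0 were called over 3 pairs, against 0.015% of 13369 genes, with 1 at unadjusted p under 0.05, against 9.96%. That gene was Prc1 (-0.28 ± 0.09, adjusted p = 0.4625), at 15.7, 12.7 and 15.3 in percc1-/- and 18.7, 17.1 and 17.6 in wild type, with no overlap. Cdc45, a part of the active helicase, differed by 0.29 ± 0.15 (adjusted p = 0.5835), and Ccne2 by -0.86 ± 0.48 (adjusted p = 0.609), with 1 percc1-/- library listed at 0.

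The genotype difference was also compared over the 12 pairs of stomach and small intestine, between older (P10 to P20) and younger (P1, P5) pairs and between the 2 organs. In the first, 0 of 40 were called, against 0% of 13047 genes, and 2 stood at unadjusted p under 0.05, against 10.6%. The licensing factor Cdt1 (0.46 ± 0.15, adjusted p = 0.341), Mcm6 (0.31 ± 0.12, adjusted p = 0.405) and Pcna (0.17 ± 0.09, adjusted p = 0.516) had the smallest p. In the second, 0 were called, against 0.0153%, and 0 stood at unadjusted p under 0.05, against 5.3%. Mcm5 (0.37 ± 0.21, adjusted p = 0.972), Kif20a (0.86 ± 0.54, adjusted p = 0.974) and Cdc6 (0.35 ± 0.23, adjusted p = 0.974) came first there.

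The 16 pairs did not all lean the same way. The median difference over the 40 genes was negative in 10 of 16 pairs. It was -0.47 in stomach, -0.39 in top intestine and -0.48 in bottom intestine at P1, with 37, 35 and 38 of the 40 genes lower in percc1-/-. It was -0.38 in bottom intestine at P20, with 37 lower. It was 0.39 in bottom intestine at P10, with 36 higher, and 0.19 in stomach at P5, with 34 higher. In the other 10 pairs it lay between -0.30 and 0.06. The rescaling sets the median over all genes of each pair near 0, so these are shifts relative to the other genes. The share of summed FPKM in named records differed between the libraries of these and of other pairs. At P1 it was 18.4% in percc1-/- and 23.4% in wild type in stomach, 24.1% and 25.6% in top intestine and 19.9% and 26.3% in bottom intestine. In bottom intestine at P10 it was 29.6% against 21.6%, at P20 25.6% against 26.9%, and in stomach at P5 21.9% against 29.45%. It was 28.4% against 38.1% in bottom stomach at P20, 23.4% against 30.6% in bottom intestine at P5 and 23.4% against 16.8% in whole gut at E14.5. The medians of the 40 genes in those pairs were 0.04, 0.06 and 0.05. In bottom stomach at P15 the share was 60.2% against 33.3%, and the median was -0.30. In the P5 pair of stomach, markers of other cells differed as well, with liver markers at a median of 4.19 log2 units, erythroid ones at 1.75, leukocyte ones at 0.68 and exocrine pancreas ones at -1.69. The part of the named share and of these cells was not tested. In bottom intestine the median was thus negative at P1 and P20 and positive at P10, with 1 pair at each stage.

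**Figure D4:**
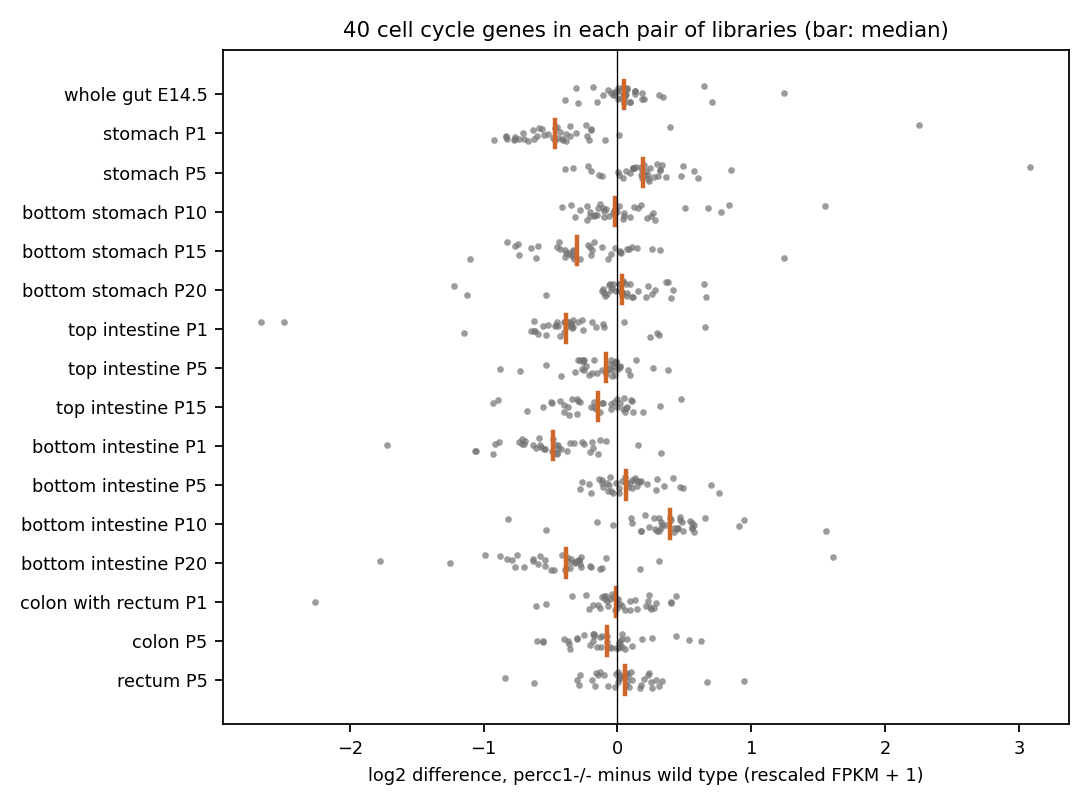
Difference between percc1-/- and wild type for each of the 40 genes (points, log2 of rescaled FPKM + 1) in each of the 16 pairs (y axis), with the median as a bar. The medians lie at -0.47, -0.39 and -0.48 in stomach, top and bottom intestine at P1 and at 0.39 in bottom intestine at P10.

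Because 3 of the 4 pairs at P1 leaned the same way, genotype was also compared at P1 alone, a comparison chosen after these values were seen. No gene of the 40 was called, against 0.0525% of 13343 genes. At unadjusted p under 0.05 stood 18 of the 40, against 12.4% of all genes, and 38 were negative, with a median of -0.33. Mki67 was at 11.6, 14.2, 13.5 and 19.2 in percc1-/- stomach, top intestine, bottom intestine and colon with rectum. In wild type it was at 18.1, 18.9, 19.2 and 20.3 in the same order. The 3 percc1-/- libraries of stomach and small intestine were below all wild-type ones, and colon with rectum was not. The difference was -0.39 ± 0.11 (adjusted p = 0.3055).

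Cdt1 was at 4.05, 6.00, 4.84 and 5.38 in percc1-/- and at 6.04, 8.15, 6.84 and 8.25 in wild type, in that order of regions. The genotypes did not overlap, and the difference was -0.46 ± 0.11 (adjusted p = 0.246). Cdt1 and Ccne2 were the 2 of 40 genes with every percc1-/- library below every wild-type one, against 1.79% of all genes, and Ccne2 was listed at 0 in 2 of the percc1-/- libraries. Cdc6 (-0.53 ± 0.14, adjusted p = 0.292) and Tpx2 (-0.51 ± 0.14, adjusted p = 0.294) were not called. All 38 other mitosis genes and 25 of 28 other replication genes were negative at P1, with medians of -0.36 and -0.23, and 0 called in each list. Of the p53 targets 8 of 11 were positive, and of the inhibitors 6 of 11, with 0 called.

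Markers of other cells were measured beside this shift. Summed over stomach and small intestine at P1, the 40 genes had 267 to 302 in percc1-/- and 379 to 411 in wild type. Colon with rectum had 459 in percc1-/- and 449.5 in wild type, so with it the ranges overlapped, 267 to 459 against 379 to 449.5. In stomach and small intestine, leukocyte markers summed to 25.7 to 29.6 against 27.0 to 41.2 and fibroblast and matrix markers to 129 to 204 against 161 to 229. Crypt stem and progenitor markers summed to 66.3 to 117 against 82.5 to 116. Exocrine pancreas markers differed most, at 35.2 to 107 against 66.8 to 327, with Cela2a and Gp2 listed at 0 in all 3 percc1-/- libraries. In medians, crypt markers were at -0.34 in bottom intestine but 0.06 in top intestine and 0.09 in stomach. Over the 4 pairs 11 of 12 enterocyte markers were positive (median 0.33) and 0 called, and in stomach their median was 1.16. Gastric gland markers were at -1.17 in stomach and 1.27 in top intestine. The part of these cells was not tested. Without the stomach and top intestine pairs, which had other-organ markers, the median was -0.24, with 35 genes negative and 4 at unadjusted p under 0.05. The number at unadjusted p under 0.05 was 6 without bottom intestine, 8 without stomach, 11 without top intestine and 21 without colon with rectum.

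At P5 the medians in the same regions were 0.19 in stomach, -0.08 in top intestine and 0.06 in bottom intestine. Mki67 was at 20.5, 17.96 and 17.4 in percc1-/- stomach, top and bottom intestine at P5, against 17.4, 17.9 and 20.1 in wild type. Top2a, the topoisomerase that untangles replicated chromosomes, was at 10.98, 13.65 and 12.8 in percc1-/- at P1 and at 19.0, 17.6 and 18.9 at P5. In wild type it was at 19.5, 19.0 and 19.7 at P1 and at 17.4, 17.8 and 18.8 at P5. In each region the percc1-/- value was higher at P5 than at P1 and the wild-type value was lower. Bub1b, the checkpoint protein BubR1, was at 4.67, 5.43 and 4.97 at P1 and 8.58, 7.43 and 8.93 at P5 in percc1-/-, against 8.47, 8.68 and 8.65 and then 7.415, 7.58 and 7.86 in wild type.

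The change of the genotype difference from P1 to P5 was tested over these 6 pairs, again after the values were seen. No gene of the 40 was called, against 0% of 13166 genes, while 18 stood at unadjusted p under 0.05, against 7.1%. All 40 estimates were positive, with a median of 0.50 log2 units against 0.02 over all genes. Marker lists moved with it, with 0 of any list called. Liver markers were positive in 10 of 10 (median 1.57), squamous ones in 6 of 6 (0.75), erythroid ones in 2 of 2 (0.81) and leukocyte ones in 5 of 6 (0.34), while gastric gland markers were negative in 10 of 11 (-0.50) and enterocyte ones in 10 of 12 (-0.26). Their part was not tested. The estimates of Bub1b (0.78 ± 0.15), Top2a (0.64 ± 0.13) and Kif11, the motor that sets up spindle poles (0.68 ± 0.16), had an adjusted p of 0.606. That of Mki67 (0.50 ± 0.15) had one of 0.611. Over leaving out each pair the median stayed between 0.45 and 0.61. A refit without pairs with other-organ markers could not be made, because only bottom intestine at P1 would remain. At P5 gastric gland markers were at a median of 1.90 in bottom intestine and -2.24 in top intestine (percc1-/- minus wild type). Squamous markers were at 3.12 and -0.03 there. This comparison and the one at P1 share 6 libraries, so the 2 are not separate evidence. In each, the 40 genes were measured in the same libraries, so a shared sign is not 40 separate observations.

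**Figure D5:**
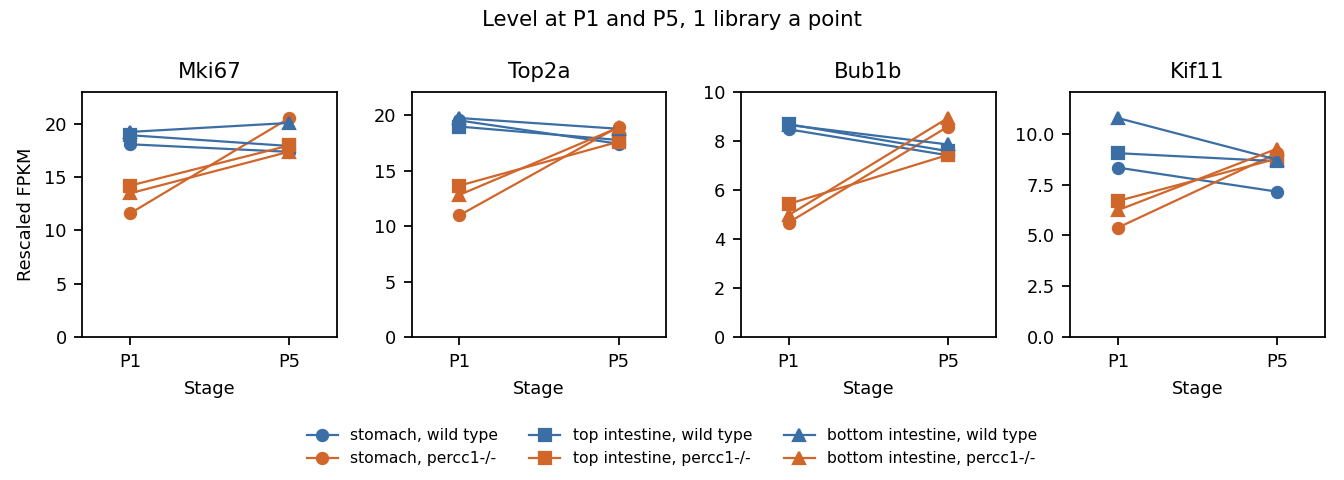
Level of Mki67, Top2a, Bub1b and Kif11 (y axis, rescaled FPKM, from 0) at P1 and P5 in stomach (circles), top intestine (squares) and bottom intestine (triangles), 1 library per point, wild type in blue and percc1-/- in orange. Orange lines start below blue ones at P1, as for Bub1b at 4.67 to 5.43 against 8.47 to 8.68, and meet them at P5.

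Stages after birth were compared within organs. From P1 to P5, over stomach and small intestine of both genotypes, 0 of 40 genes were called, against 0% of 13166 genes, with 9 at unadjusted p under 0.05, against 9.64%. The median was 0.21 and 37 were positive, but it was -0.05 with 15 positive in wild-type libraries alone. Mki67 differed by 0.23 ± 0.12 (adjusted p = 0.575) over both genotypes and by -0.02 in wild type. Ccnb1 (0.36 ± 0.12, adjusted p = 0.4095), its relative Ccnb2 (0.42 ± 0.13, adjusted p = 0.3999) and Prc1 (0.25 ± 0.09, adjusted p = 0.422) were not called. From P10 to P20, in bottom stomach and bottom intestine, 0 of 39 genes were called, against 0.0527%, with 4 at unadjusted p under 0.05, against 17.1%, and the median was -0.02. Ccne1, a cyclin of S-phase entry, was at 2.06 ± 0.58 (SD, n = 4) at P20 and 3.84 ± 0.89 (SD, n = 4) at P10, a difference of -0.66 ± 0.20 (adjusted p = 0.215). Bub1 (-0.68 ± 0.23, adjusted p = 0.236) and Cdc6 (-0.45 ± 0.16, adjusted p = 0.2455) were not called.

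In small intestine 1 of 40 genes was called between P10 to P20 and P1 to P5. Of 12772 genes 5.93% were called in either direction and 2.47% lower. The 1 call was lower, at a share near that of all genes. Ccne1 fell, from a median of 4.33 (lowest 3.51, highest 7.21) in 8 younger libraries to 2.46 (1.92 to 4.73) in 6 older ones. The groups overlapped, and the change was -0.64 ± 0.17 (adjusted p = 0.0475). Mki67 was at 18.1 ± 2.93 (SD, n = 6) in older and 17.4 ± 2.36 (SD, n = 8) in younger libraries (adjusted p = 0.851). The median over the 40 genes was 0.01. Crypt stem and progenitor markers moved apart from them, with 8 of 13 called higher and a summed level of 125 to 153 in older against 66.3 to 107 in younger small intestine. The Ccne1 call was lost without top intestine at P15 (adjusted p = 0.355), at P1 (0.0992) or at P5 (0.0754), and without bottom intestine at P1 (0.146), P5 (0.0627) or P20 (0.144). It was also lost with the pair as a random block (adjusted p = 0.0679) and in wild-type libraries alone (adjusted p = 0.1475).

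In stomach 2 of 40 genes were called, both lower in older libraries, against 17.1% of 13266 genes in either direction and 9.07% lower. The calls among the 40 were below the share of all genes called lower. Prc1 was at 15.6, 11.04, 17.1 and 17.2 in the 4 younger libraries and between 5.66 and 11.8 (median 9.56) in the 6 older ones. The groups overlapped only between 11.04 and 11.8, and the change was -0.65 ± 0.18 (adjusted p = 0.0315). E2f1, the factor that switches on replication genes, was at 4.27 ± 0.42 (SD, n = 4) in younger and 2.87 ± 0.63 (SD, n = 6) in older libraries, a change of -0.46 ± 0.14 (adjusted p = 0.0447). Ccnb1 changed by -0.43 ± 0.18 and was not called (adjusted p = 0.128). Of the 40 genes 37 were negative, with a median of -0.16, but with FPKM as deposited 27 were positive, with a median of 0.06 and 0 called. Of 39 other mitosis genes 6 were lower, among them the cytokinesis scaffold Anln (-0.75 ± 0.16, adjusted p = 0.0116), and Orc1, the origin recognition subunit, led 3 lower of 27 replication genes (-0.96 ± 0.18, adjusted p = 0.00668). Older stomach libraries were the bottom part and younger ones the whole organ, so age and part cannot be told apart. All 5 squamous markers tested were lower and 9 of 11 gastric gland markers higher in the older libraries, and their part was not tested. With unnamed records added 10 of the 40 were called, but Prc1 was not (-0.71, adjusted p = 0.103). No gene was called without bottom stomach P15, bottom stomach P20, stomach P1 or stomach P5. The E2f1 call was lost in these refits, without bottom stomach P10 (adjusted p = 0.1075) and with the pair as a random block (adjusted p = 0.0630), and in wild-type libraries alone neither Prc1 (0.0781) nor E2f1 (0.575) was called.

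Regions were compared at P1 and P5. Large bowel was higher than small intestine in 6 of 40 genes and lower in 0, against 38% of 13171 genes in either direction and 20.2% higher. Cdc6 was between 2.99 and 6.16 (median 5.54) in 6 large bowel libraries and between 1.28 and 4.05 (median 2.46) in 8 of small intestine. The ranges overlapped, and the difference was 0.76 ± 0.15 (adjusted p = 0.000889). Rrm1 was between 12.9 and 16.6 (median 13.4) in large bowel and between 7.73 and 14.3 (median 9.91) in small intestine, a difference of 0.46 ± 0.11 (adjusted p = 0.00256). Prc1 (0.30 ± 0.09, adjusted p = 0.0122), Mcm5 (0.44 ± 0.13, adjusted p = 0.0146), Cdc45 (0.56 ± 0.19, adjusted p = 0.0286) and Ccnb1 (0.38 ± 0.13, adjusted p = 0.035) were the others. Mki67 was not called, at 19.9 ± 1.71 (SD, n = 6) against 17.4 ± 2.36 (SD, n = 8) (adjusted p = 0.187). Of the 40 genes 38 were positive, with a median of 0.23 against 0.03 over all genes, and 17 stood at unadjusted p under 0.05, against 46.4%.

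In the wider pathways, 14 of 37 other mitosis genes and 7 of 28 other replication genes were higher in large bowel and 0 lower. Of all genes tested 20.2% were called higher, and the calls among the 40 were below that share. Pole2, a subunit of DNA polymerase epsilon, was at 8.11 ± 1.10 (SD, n = 6) against 3.91 ± 1.121 (SD, n = 8) (adjusted p = 0.000486). Enterocyte markers were lower in large bowel (10 of 12 called), and smooth muscle (8 of 10) and enteric neuron and glia markers (10 of 12) were higher. Their part was not tested. The number of calls among the 40 was 1 without colon with rectum at P1, 12 without stomach at P1, 10 without stomach at P5 and 10 without bottom intestine at P5. It was 17 when libraries were given the same FPKM sum over named records. In wild-type libraries alone Mcm5 (adjusted p = 0.0622) and Cdc45 (adjusted p = 0.0581) were not called. Ccnb1 was not called with FPKM as deposited (adjusted p = 0.0831) or with unnamed records added (adjusted p = 0.145). Its call was also lost without bottom intestine at P1, top intestine at P1 or P5, rectum at P5, or colon with rectum at P1.

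Stomach was lower than large bowel in 3 of 40 genes and higher in 0, against 15.4% of genes in either direction and 6.86% lower. The calls among the 40 were near the share of all genes called lower. All 40 differences were negative, with a median of -0.24. Among markers of other cells, 8 of 12 of enteric neuron and glia and 3 of 12 of enterocytes were called lower in stomach. Called higher were 9 of 11 of gastric glands, 5 of 5 of squamous epithelium and 5 of 19 of exocrine pancreas, with 2 of the 19 lower. Their part was not tested. Aurka was at 5.20 ± 1.24 (SD, n = 4) against 7.85 ± 0.62 (SD, n = 6), and its ranges, 3.63 to 6.64 and 6.98 to 8.51, did not overlap (-0.50 ± 0.14, adjusted p = 0.0185). Cenpe, the kinetochore motor, was between 3.39 and 5.80 against 6.11 to 7.78 (-0.49 ± 0.13, adjusted p = 0.0181). Gmnn, geminin, the inhibitor of Cdt1, differed by -0.35 ± 0.10 (adjusted p = 0.0226). No gene was called without colon with rectum at P1 or without stomach at P1, and 6 were without stomach at P5. In wild-type libraries alone Aurka (adjusted p = 0.0510) and Gmnn (adjusted p = 0.317) were not called. Cenpe was not called with unnamed records added (adjusted p = 0.283), nor Gmnn with FPKM as deposited (adjusted p = 0.0743).

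Between stomach and small intestine 2 of 40 genes were called, against 43.6% of genes. Cdc6 was higher in stomach, at 5.37, 2.93, 5.33 and 3.83 against a median of 2.46 (1.28 to 4.05) in small intestine (0.59 ± 0.17, adjusted p = 0.00995). Gmnn was lower, at 7.21 ± 1.17 (SD, n = 4) against 8.88 ± 0.79 (SD, n = 8) (-0.28 ± 0.09, adjusted p = 0.0252). The median over the 40 was -0.02. In wild-type libraries alone neither was called (Cdc6 0.58, adjusted p = 0.0562, and Gmnn -0.19, adjusted p = 0.254). At least 1 of the 40 was called in every refit of this comparison, so another gene was called there. Leaving out stomach at P5 ended the Cdc6 call (adjusted p = 0.149). Leaving out stomach at P1 (adjusted p = 0.436), top intestine at P1 (0.0737), bottom intestine at P1 (0.0642) or bottom intestine at P5 (0.0515) ended that of Gmnn, and 4 genes were called without colon with rectum at P1. Top and bottom intestine differed in 0 of 40 genes, against 0.00782% of 12786 genes, with 1 at unadjusted p under 0.05, against 6.41%. Cenpa was at 8.79 ± 2.65 (SD, n = 4) in the top and 11.4 ± 3.69 (SD, n = 4) in the bottom part (-0.33 ± 0.13, adjusted p = 0.7645). The 3 region comparisons share libraries and are not independent.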

How the data were processed

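Total RNA was taken with TRIzol and sequenced from stranded libraries depleted of ribosomal RNA by Ribo-Zero, per the labels' protocols. The authors deposited 1 gene table per library with FPKM values. TopHat2 2.0.13, SAMtools 0.1.18, Cufflinks 2.2.1 and mm9 are named in the submitters' processing notes, with the annotation not given in the sources used here. The tables hold no counts, so the depth is unknown.

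The 40 genes, the other lists and the comparisons were chosen with earlier results of these data known. Records of 1 symbol were summed. Libraries were rescaled by median ratios over 10023 genes above 1 FPKM in every library (factors 0.864 to 1.38). limma 3.58.1 in R 4.3.3 was fitted to log2(rescaled FPKM + 1) with a trended, robust prior. Genes needed a mean of 1 FPKM or more and a value in every library of the fit. Differences on this scale understate changes of low genes. Genotype was fitted with the pair (region and stage in the labels) as a block. Age, E14.5 and organ fits had genotype as a covariate, with part or stage where it varied. P5 against P1, P20 against P10 and top against bottom intestine had blocks of matched libraries. p-values were adjusted by Benjamini and Hochberg over all genes of a fit, and 0.05 was the threshold. There were 15 planned comparisons and 2 added. Genes named were Mki67, Pcna and Ccnb1, those called with the largest change (up to 6) or the 3 with the smallest p, and the highest of each role. Of those, values were printed for part. Scripts were tested on simulated data. Promoters are from RefSeq, GRCm38.p6.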

Additional observations from a re-analysis of the deposited data

Results flagged for a closer look

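For the gene with the highest mean of each role, Ccnb1 and the summed level, the libraries of a group (small intestine or stomach of 1 genotype) were searched for one far from the rest, and 4 of 36 combinations had one. Chance alone gives about 1 such group in 20. In small intestine of wild type, bottom intestine at P20 had 19.1 FPKM of Ccna2, where the next library had 14.1, and 14.1 FPKM of Rrm1, where the next had 10.1. That library also had the highest summed level of the 40 genes in small intestine, 453. In stomach of percc1-/-, the P5 library had 11.7 FPKM of Rrm1, the next being at 9.81. The P1 library had 18.6 FPKM of Pcna, where the next lowest had 20.8. These groups mix stages and parts of an organ.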

How the results depend on the processing

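The number of the 40 genes called depended on the processing in every comparison that called any. Between older and younger small intestine the 1 call became 0 with no filter on low values, a mean of at least 5 FPKM, FPKM as deposited, the same FPKM sum over named records, without pairs with other-organ markers, or with the pair as a random block, and 0 to 1 when leaving out a pair. Between older and younger stomach the 2 calls became 1 with no filter, 1 at a mean of at least 5 FPKM, 1 with the random block, 0 with FPKM as deposited, 0 in wild-type libraries alone and 10 with unnamed records added, and 0 to 2 when leaving out a pair. Prc1 was not among those 10. Stomach against small intestine had 1 call in place of 2 at a mean of at least 5 FPKM (1 to 4 leaving out a pair). Large bowel against small intestine had 17 in place of 6 with the same FPKM sum and 12 with unnamed records (1 to 12 leaving out a pair). Stomach against large bowel had 6 in place of 3 with the same FPKM sum (0 to 6 leaving out a pair). E14.5 against P1 had 4 in place of 20 with FPKM as deposited, 1 without pairs with other-organ markers, 0 in wild-type libraries and 0 with the random block (1 to 30 leaving out a pair). Genotype over all pairs had 0 to 1 calls when leaving out a pair. With organ fitted in place of the pair it had 0 calls, with 5 at unadjusted p under 0.05, and at P1 0 calls with 19. At P1 this joined only the pairs of top and bottom intestine. With 0 calls in both fits, these refits cannot show whether the block matters. The cause of these shifts was not tested.

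Some uncalled differences changed sign. Pcna over all pairs was 0.0138 without pairs with other-organ markers. With unnamed records added, Prc1 in small intestine was 0.037, Cdc45 in large bowel -0.19 and Cenpa between top and bottom intestine 0.0399. Mki67 in wild-type libraries alone was -0.0178 with age in small intestine and -0.0235 from P1 to P5, and with age it ran from -0.0203 to 0.0804 when leaving out a pair. Over all settings 987 values of named genes kept direction and side of the threshold, 99 lost a call, 7 gained one and 7 changed sign. Unnamed records, the use of other-organ pairs and the zeros were examined after seeing the data. Depth is unknown, and each region and stage has 1 library per genotype.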
